A study of Mus musculus with 10 samples.

Results

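CD4+ effector memory T (TEM) cells were compared with naive CD4+ T cells across 18193 genes. The TEM cells were raised from naive cells in culture with mouse B lymphoma cells that express LMP1 and LMP2A, proteins of EBV. The members are the 4 arrays whose titles name naive CD4+ T cells or the day 25 CD4+ effector cells, 2 arrays a group, out of 10 arrays in the series. The other 6 arrays hold CD4+ memory cells of day 25, naive CD8+ T cells and CD8+ TEM cells of day 25, 2 arrays each. Granzymes and the lineage regulators named by the study are left aside here, and the report follows the remaining genes.

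Naive CD4+ T cells were sorted as TCRβ+ CD4+ cells with the surface markers of naive cells, CD44- among them, from spleens of wild-type C57BL/6 mice, whose age and sex are not given. CD4+ TEM cells were such cells grown with LMP1/2A+ B lymphoma cells that had been γ-irradiated and with low-dose IL-2, restimulated every week and sorted as CD44+ cells with the surface markers of TEM cells on day 25. The lymphoma cells came from mice with Cγ1-Cre, Rosa26-LMP1 flSTOP and Rosa26-LMP2A flSTOP alleles, through B cells grown in Rag2-/- or Rag2-/- γC-/- hosts. Cγ1-Cre is active in germinal center B cells, where it turns on LMP1 and LMP2A, latent membrane proteins of EBV. Whether 1 lymphoma line or several stimulated these cultures is not clear from the study's methods. The naive cells were not cultured, so culture, IL-2, stimulation and the sorting gate differ together between the groups and cannot be told apart. Whether the 2 arrays of a group came from separate mice is not stated, and the p-values then measure only the spread between these samples, which may be technical. Groups were taken from titles and source names, because the records also call every sample germinal center B cells and the series an edited lymphoma line. The records give a *Foxo1* status too, which is wt+/mt+ for both naive CD4+ arrays, wt-/mt+ for both CD4+ TEM arrays, and unlike between the arrays of the CD4+ memory and of the CD8+ TEM group. What that status describes is not stated, and if it is a genotype of these cells it cannot be told apart from the step from naive to TEM. *Foxo1* itself read 12.36 and 12.21 on the naive and 11.31 and 11.32 on the TEM arrays (-0.97, adjusted p = 0.00472 by limma).

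A naive CD4+ T cell recirculates between blood and lymphoid organs in a resting state, held there by lymph node homing receptors, survival cytokine receptors and inhibitors of the cell cycle. On antigen recognition through the T cell receptor it divides, switches to aerobic glycolysis and lipid synthesis, and acquires receptors and secreted mediators for work in tissues. Effector memory cells are the antigen-experienced cells that carry the hyaluronan receptor CD44 and have lost receptors for entry into lymph nodes.

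All levels are RMA values on the log2 scale, and save for linear sums over marker lists, levels of different genes are not compared. The array medians lay between 4.65 and 4.75. Between replicates, 1.75% of the genes differed at least 2-fold in naive CD4+ cells and 2.68% in CD4+ TEM cells, against 6.89% in CD4+ memory and 4.29% in naive CD8+ cells. The helper T cell co-receptor gene *Cd4* read 11.87 and 11.89 on the naive arrays and 11.65 and 11.82 on the TEM arrays, and *Cd3e*, a chain of the T cell receptor complex, read 13.14 and 13.29 against 13.28 and 13.17. *Cd8b1*, for CD8β, stayed dim at 5.63 and 5.30 against 5.25 and 4.94. *Cd44* was used for the sort. As a sign of RNA quality, the *Gapdh* control probe sets gave a 3' minus 5' signal of 2.49 and 2.42 on the naive arrays and 1.19 and 1.31 on the TEM arrays, and its part in the results was not tested. RNA of bulk cells was measured, so fewer cells of a type and less RNA per cell cannot be told apart.

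Between naive and CD4+ TEM cells the RNA of 26.5% of the genes differed, and rises were both more frequent and larger than falls. limma called 4825 genes at an adjusted p under 0.05, out of 18193 tested. Of these, 2984 (16.4% of all genes) were higher and 1841 (10.1%) were lower in TEM cells, while the median log2 fold change over all genes was 0.02. Both TEM arrays lay above both naive arrays for 33.8% of the genes and below them for 29.3%. The shares of all genes, 26.5% called, 16.4% higher and 10.1% lower, are the comparison for each gene list below. The lists were chosen with earlier results of these data known, so their shares are a description and no test. A change of at least 4-fold was found for 1077 higher genes, 36.1% of those called, and for 267 lower genes, 14.5%. At 64-fold, 95 genes were higher and 4 were lower, namely *Fos*, *Il6ra*, *Rnf144a* and *Atp1b1*.

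The counts of calls depend on the number of arrays: without naive CD4+ array 2 the total was 3185, and the lower calls were 1131, 1075 and 1175 without naive array 1, naive array 2 or TEM array 1. Values under about 6 are set largely by background, so a fold change that starts or ends there is limited by it, and 614 of the called genes (12.7%) had both group means under 6.

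**Figure D1:**
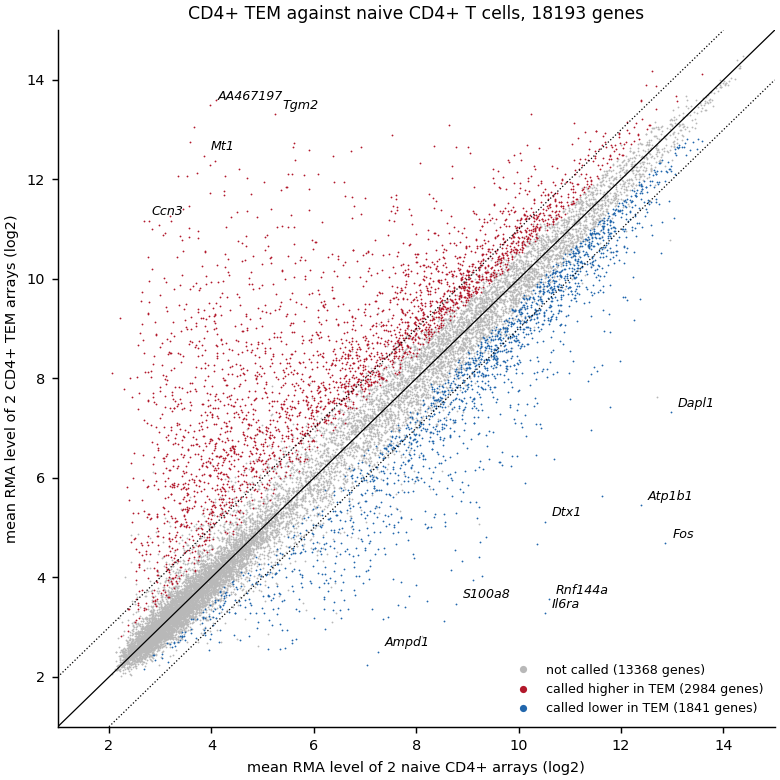
Mean RMA level (log2) of the 2 naive CD4+ arrays on the horizontal axis and of the 2 CD4+ TEM arrays on the vertical axis, 1 point per gene. Red points are the 2984 genes called higher, blue points the 1841 called lower and grey points the 13368 not called, the solid line marks equal levels and the dotted lines a 2-fold change. The red points reach from the dim end of the naive axis up to TEM levels above 13, whereas few blue points reach down to the dim end of the TEM axis.

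A set of 52 genes was dim in both naive arrays (under 5) and bright in both TEM arrays (above 10), and only *Il6ra* and *Rnf144a* met the reverse limits. Every gene of both sets was called. The genes that appeared were of many kinds, and several are best known from other tissues.

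*AA467197* encodes a small mitochondrial protein related to NDUFA4, a subunit linked to cytochrome c oxidase. It read 4.25 and 3.71 on the naive arrays and 13.50 and 13.48 on the TEM arrays, the largest rise among the genes the study does not name (log2 fold change 9.51, SE 0.48, adjusted p = 4.54e-06). Its relative *Ndufa4* went the other way, from 9.55 and 9.62 to 8.48 and 8.19 (-1.25, SE 0.21, adjusted p = 0.00309). Neither pair of groups overlapped, and the CD4+ memory arrays read 13.56 and 13.58 for *AA467197* and 7.92 and 7.55 for *Ndufa4*.

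Secreted and matrix proteins were among the genes that appeared. *Csn2*, the milk protein β-casein, read 2.83 and 2.72 in naive and 11.17 and 11.18 in TEM cells (8.40, SE 0.26, adjusted p = 6.02e-07). *Ccn3*, a matricellular protein, went from 2.38 and 3.01 to 11.27 and 11.07 (8.48, SE 0.31, adjusted p = 9.17e-07), and *Emilin2*, an elastin microfibril glycoprotein, from 2.74 and 2.92 to 11.12 and 10.90. *Penk*, the precursor of the enkephalin opioid peptides, read 4.25 and 4.25 in naive cells, 11.81 and 11.74 in TEM cells and 7.25 and 7.56 in memory cells. In each of these genes the naive arrays stood at background and both TEM arrays were bright.

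Adhesion and cytoskeleton genes appeared as well. *Scin*, the actin-severing protein scinderin, read 4.13 and 3.30 against 12.12 and 12.15 (8.42, SE 0.26, adjusted p = 5.27e-07). *Mpzl2*, an immunoglobulin-fold adhesion molecule, read 2.91 and 3.04 against 11.13 and 11.05, with 6.64 and 7.41 in the memory cells. *Cdh1* encodes E-cadherin, the epithelial ligand of the integrin CD103. It read 3.31 and 3.56 in naive and 10.52 and 10.62 in TEM cells (7.13, SE 0.15, adjusted p = 1.57e-07). *Cntn1*, a contactin known from neurons, read 3.07 and 2.43 against 10.40 and 10.50, and 4.12 and 3.65 in memory cells, which therefore stayed near the naive level.

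Enzymes were also among the large rises. *Tgm2*, transglutaminase 2, which crosslinks proteins, went from 5.77 and 4.72 to 13.30 and 13.33. *Pygl*, a glycogen phosphorylase, went from 3.07 and 3.12 to 10.92 and 10.93, *Ak4*, a mitochondrial adenylate kinase, from 4.15 and 3.79 to 11.74 and 11.71, and *Upp1*, uridine phosphorylase, from 4.37 and 4.39 to 11.19 and 11.28. Each of these enzyme genes was called, and no TEM array overlapped a naive array. *Trgv1*, a variable segment of the T cell receptor γ chain, read 3.18 and 3.24 in naive and 11.15 and 11.19 in TEM cells (7.96, SE 0.22, adjusted p = 3.78e-07), and *Trgv4* read 4.35 and 5.02 against 10.95 and 10.79. These variable segments are alike in sequence, so signal from other segments of the locus cannot be told apart.

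Among the falls, *Fos*, a subunit of the AP-1 transcription factor, read 12.88 and 12.86 in naive cells and 5.08 and 4.29 in TEM cells (-8.18, SE 1.56, adjusted p = 0.00566). *Il6ra*, the IL-6 binding chain of the IL-6 receptor, read 10.54 and 10.48 against 3.33 and 3.24 (-7.22, SE 0.17, adjusted p = 2.56e-07). *St8sia6*, a sialyltransferase, went from 11.68 and 11.58 to 5.63 and 5.67 (-5.98). *Dtx1*, an E3 ligase of the Deltex family tied to Notch signalling and T cell anergy, went from 10.65 and 10.38 to 4.96 and 5.28 (-5.39), and *Sox4*, an HMG box factor, from 10.28 and 10.46 to 5.04 and 4.32 (-5.69). For all of these the TEM arrays fell to the background range, and the groups did not overlap.

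Some large values rest on 1 probe set of a gene. Of 48 called genes named by rule with a log2 change of at least 3 and a further probe set, 30 had a further probe set that changed by under 0.5 times as much or the other way. Beside those given next, the 30 include *Mpzl2*, *Tgm2*, *Trgv4*, *Nusap1*, *Tpx2*, *Uhrf1*, *Il18rap* and *Socs2*. *Cd244a*, *Tnfrsf9*, *Cd80*, *Srxn1*, *Bcl2l2* and *Tet1* are among them too. The other probe set of *Il6ra* changed by -0.98 and that of *Dtx1* by -1.62, while the probe sets of *Sox4* ranged down to a change of -0.08. *Rnf144a*, a ubiquitin ligase, read 10.61 and 10.57 against 3.57 and 3.55, but its other probe sets changed by -0.88 and -0.60. *Atp1b1*, a Na,K-ATPase subunit, read 12.33 and 12.45 against 4.97 and 5.92, whereas the brightest of its probe sets without a shared-sequence mark changed by -0.35. *Mt1*, metallothionein 1, read 3.47 and 4.24 against 12.50 and 12.45 on a probe set marked as shared between transcripts, and 0.13 was the change on its unmarked one. Of 1782 called genes that have a further probe set above 6, all further probe sets moved in the same direction for 1525.

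**Figure D2:**
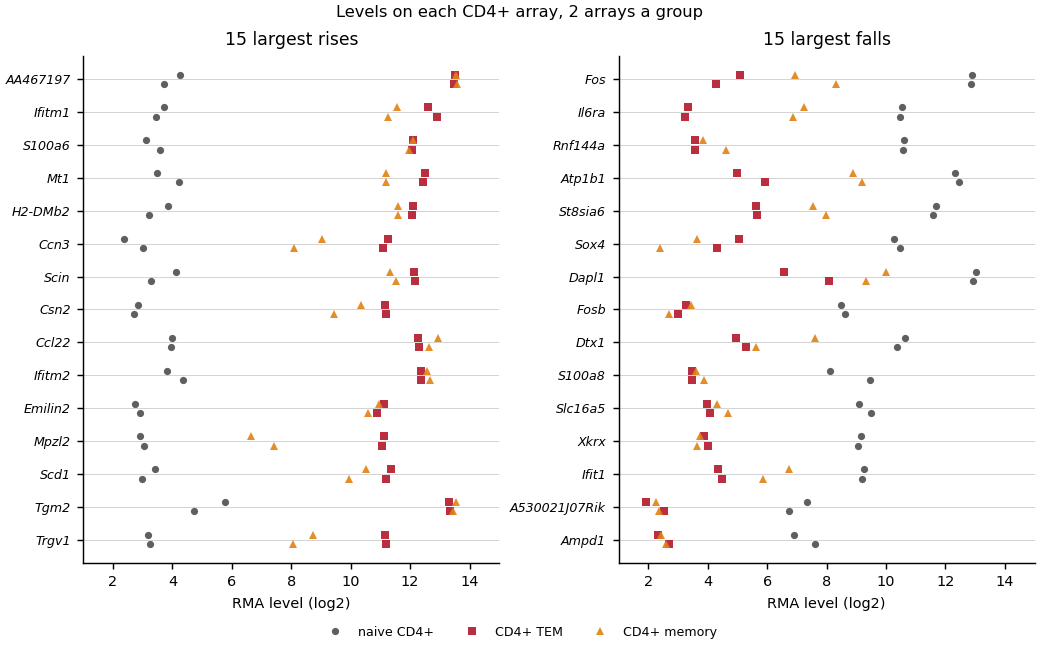
RMA level (log2) on each CD4+ array for 15 rises and 15 falls, the largest that were called, outside the genes the study names and without overlap of the groups. Circles are naive, squares TEM and triangles memory cells, 2 arrays each, and naive arrays stay under 6 for every rise shown, the TEM arrays lie above 10, and the memory arrays lie between the groups for *Mpzl2*, *Ccn3* and *Trgv1*.

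Genes of naive recirculation and quiescence fell almost as a set. Of 20 measured, 18 fell (90%, against 10.1% of all genes), none rose, and the list median was -1.38 against 0.02 over all genes. *S1pr1*, the sphingosine-1-phosphate receptor for exit from lymph nodes, read 9.14 and 9.21 in naive and 5.80 and 5.22 in TEM cells (-3.67, SE 0.19, adjusted p = 5.99e-06). *Klf2*, a factor that drives *S1pr1*, went from 9.55 and 9.67 to 5.92 and 6.74 (-3.28), and *Klf3*, of the same family, from 11.51 and 11.42 to 7.99 and 8.47 (-3.24). *Actn1*, an actin crosslinker, read 12.08 and 11.89 against 8.12 and 8.59 (-3.63). The groups did not overlap in any of these genes.

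Several other nuclear factors of the list fell by less than *Klf2* and *Klf3* and stayed bright. *Foxp1*, a forkhead factor of quiescence, read 12.64 and 12.73 against 11.47 and 11.63 (-1.14, SE 0.17, adjusted p = 0.00145), *Satb1*, a chromatin organiser, 12.73 and 12.74 against 11.89 and 12.01 (-0.78), and *Bach2*, a repressor of effector genes, 12.13 and 12.00 against 10.51 and 10.82 (-1.40). *Il7r*, the survival receptor for IL-7, went from 12.93 ± 0.09 to 11.56 ± 0.01 (SD, n = 2) and so stayed bright (-1.37). The members not called were *Ccr7*, the lymph node homing receptor, at 10.87 and 10.81 against 10.25 and 10.38 (-0.53, adjusted p = 0.184), and *Id3*, at 8.21 and 8.25 against 8.42 and 8.65 (0.30, adjusted p = 0.239). *Ccr7* passed the threshold without either naive CD8+ array or with the 4 CD4+ arrays compared alone.

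GIMAP genes, small GTPases of lymphocyte survival, were split: 4 of 8 fell, with a list median of -0.57 (62.5% called, against 26.5% of all genes). *Gimap7* rose from 10.81 and 10.54 to 11.66 and 11.68 (0.99, SE 0.18, adjusted p = 0.00471). *Gimap6* fell most, from 11.51 and 11.47 to 10.08 and 10.27 (-1.31), and *Gimap8* went from 12.17 and 12.20 to 11.16 and 11.27 (-0.97). With the variation filter 2 of the list were called lower.

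The list of cell cycle brakes also holds the D-type cyclins *Ccnd2* and *Ccnd3*, which are not brakes. It went both ways, with 5 of 14 higher, 6 lower and a median of 0.15 (78.6% called, against 26.5% of all genes). *Ccnd3* was among the higher calls (1.74), though the mean of its probe sets changed by -0.24. *Cdkn1a*, the inhibitor p21, read 5.39 and 5.78 in naive and 12.68 and 12.64 in TEM cells (7.07, SE 1.19, adjusted p = 0.00305), and *Cdkn2c*, the inhibitor p18, went from 5.58 and 6.17 to 7.98 and 7.81 (2.02). *Btg2*, an antiproliferative factor of resting cells, fell from 9.91 and 10.03 to 8.29 and 8.32 (-1.67), *Btg1* from 12.83 and 12.88 to 11.93 and 12.00 (-0.89), and *Slfn2*, a Schlafen protein of T cell quiescence, from 11.39 and 11.49 to 10.23 and 10.37 (-1.14). For each of these genes the groups did not overlap. Without any single one of the 4 arrays, 3 of the list were called lower.

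Cell division genes rose together. All 29 measured genes of mitosis and the spindle were called higher, at a median of 4.17, and of 30 genes of DNA replication 25 rose and 1 fell, at a median of 1.62. For comparison, 16.4% of all genes rose. *Tpx2*, a spindle assembly factor, read 2.99 and 3.85 against 10.01 and 10.16 (6.67, SE 0.28, adjusted p = 1.88e-06), *Nusap1*, a spindle microtubule binder, 3.66 and 4.88 against 10.43 and 10.57 (6.23), and *Ccnb2*, cyclin B2, 4.08 and 3.32 against 9.95 and 9.89 (6.22). *Cdk1*, the kinase of mitotic entry, went from 3.81 and 4.86 to 10.39 and 10.40 (6.06). The least of the mitotic changes was that of *Kif23*, a kinesin of cytokinesis, from 6.59 and 6.66 to 7.77 and 8.36 (1.44, SE 0.31, adjusted p = 0.0102).

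Changes of replication genes spanned a wider range. *Tk1*, thymidine kinase 1, read 3.41 and 3.79 against 9.26 and 9.22 (5.64, SE 0.19, adjusted p = 6.42e-07), *Pole*, a DNA polymerase catalytic subunit, 5.33 and 4.79 against 9.20 and 9.45 (4.27), and *Uhrf1*, which brings DNA methylation to replicated DNA, 7.39 and 7.73 against 11.22 and 11.12 (3.61). *Cdc6*, a factor of origin licensing, read 5.78 and 4.94 against 9.43 and 9.64 (4.17, SE 0.90, adjusted p = 0.0103), and its call ended without naive array 2 or TEM array 2. *Pcna*, the polymerase clamp, was already bright, at 12.05 and 12.14 against 12.40 and 12.54 (0.37, adjusted p = 0.147), as was *Mcm4*, of the replicative helicase, at 11.48 and 11.49 against 11.50 and 11.32 (-0.08, adjusted p = 0.856). The single fall, of *Orc1*, an origin recognition subunit (-1.45, adjusted p = 0.0476), ended without any single CD4+ or CD8+ TEM array, memory arrays included, and the mean of its probe sets moved the other way.

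E2F factors drive many replication genes through sites near the transcription start, so the promoters of the replication genes called higher were searched for E2F letters. The letters TTTCGCGC, TTTGGCGC or TTTCCCGC were looked for on both strands in the 250 bases before each RefSeq start (GRCm38.p6), and 22 of the 25 genes had a promoter in the table. The letters were found for 7 of the 22 (31.8%): *Cdc6*, *Uhrf1*, *Rfc3*, *Pola1*, *Mcm6*, *Mcm5* and *Mcm7*. Over all genes with a promoter the share was 1.78%, and for the mitosis genes called higher it was 1 of 24 (4.17%), *Cdk1*. A match is a description of the sequence and not a site in use. The promoters of *Cdc6* (chr11:98907901-98908150, plus strand), *Uhrf1* (chr17:56304063-56304312, plus strand) and *Rfc3* (chr5:151651209-151651458, minus strand) are shown because these genes had the largest rises of the 7. They are written 5′ to 3′ on the strand of the gene and end at the base before the start, with the matched letters in capitals. In *Cdc6* the match lies on the opposite strand.
Cdc6: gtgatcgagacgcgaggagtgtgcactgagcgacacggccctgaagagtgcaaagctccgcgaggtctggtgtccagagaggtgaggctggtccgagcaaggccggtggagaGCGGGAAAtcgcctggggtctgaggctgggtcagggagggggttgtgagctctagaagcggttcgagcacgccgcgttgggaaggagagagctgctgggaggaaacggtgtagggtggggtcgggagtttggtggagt
Uhrf1: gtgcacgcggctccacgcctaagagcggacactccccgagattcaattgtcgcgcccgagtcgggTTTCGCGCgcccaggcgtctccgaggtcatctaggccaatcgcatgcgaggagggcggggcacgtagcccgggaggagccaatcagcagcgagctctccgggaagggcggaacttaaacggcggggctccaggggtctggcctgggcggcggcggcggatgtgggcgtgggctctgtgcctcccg
Rfc3: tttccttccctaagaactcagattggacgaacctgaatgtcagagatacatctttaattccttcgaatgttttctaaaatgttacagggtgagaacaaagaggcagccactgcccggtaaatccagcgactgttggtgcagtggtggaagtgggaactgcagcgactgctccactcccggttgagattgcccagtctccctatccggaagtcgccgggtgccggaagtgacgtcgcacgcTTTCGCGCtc

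Glycolysis rose nearly in full, with 18 of 19 measured genes higher, 1 lower and a median of 2.05 (100% called, against 26.5%). *Hk2*, the inducible hexokinase that commits glucose to the pathway, read 5.36 and 4.71 in naive and 11.96 and 11.93 in TEM cells (6.91, SE 0.26, adjusted p = 1.13e-06). *Slc16a3*, the lactate exporter MCT4, read 4.85 and 4.95 against 11.26 and 11.22 (6.34), and *Slc2a3*, the glucose transporter GLUT3, 10.19 and 10.28 against 13.31 and 13.33 (3.08). Hypoxia-linked members moved in the same direction: *Egln3*, an oxygen-sensing prolyl hydroxylase, went from 5.34 and 5.87 to 12.74 and 12.75 (7.14), and *Bnip3*, a mitophagy receptor, from 8.60 and 8.67 to 13.08 and 13.09 (4.45). *Pdk1*, which holds pyruvate back from the mitochondria, was the member called lower (-0.45, adjusted p = 0.0386), a call that ended without any single one of the 4 arrays or either CD8+ TEM array.

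Respiratory chain genes were called about as often as all genes, at 27.3% against 26.5%. Of 22 measured genes, 5 rose and 1, *Ndufa4*, fell, with a median of 0.22, and 16 were not called. Both TEM arrays lay above both naive arrays for 15 of the 22 and below them for 4, against 33.8% and 29.3% of all genes. *Cox5a*, a cytochrome c oxidase subunit, read 11.94 and 11.85 against 12.75 and 12.65 (0.81, adjusted p = 0.0137). *Atp5a1*, of the ATP synthase, read 13.24 and 13.23 against 13.02 and 13.11 (-0.17, adjusted p = 0.409), and *Cox4i1*, of cytochrome c oxidase, 12.46 and 12.38 against 12.47 and 12.46 (0.05, adjusted p = 0.837). The number called higher was 1 without naive array 1, naive array 2 or TEM array 1, 2 without TEM array 2 and 3 without either CD8+ TEM array or with unmarked probe sets.

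Sterol and fatty acid synthesis rose in 19 of 23 measured genes, with none lower and a median of 1.31 (82.6% called, against 26.5%). *Scd1*, the desaturase that makes oleate, read 3.42 and 2.96 in naive and 11.35 and 11.18 in TEM cells (8.07, SE 0.95, adjusted p = 0.00045), and its sister *Scd2* 10.24 and 9.83 against 12.44 and 12.34 (2.35). Along the sterol branch, *Fdps*, farnesyl diphosphate synthase, went from 7.81 and 7.89 to 10.34 and 10.23 (2.44), *Lss*, lanosterol synthase, from 7.44 and 7.17 to 9.78 and 9.65 (2.42), and *Sqle*, squalene epoxidase, from 8.60 and 8.46 to 10.40 and 10.17 (1.75). *Lss* read 8.16 and 7.28 in memory cells, nearer to the naive level. *Insig1*, the sterol-sensing retention protein, and *Acly*, which makes cytosolic acetyl-CoA, were not called, at 11.69 and 11.62 against 11.76 and 11.66, and at 12.41 and 12.44 against 12.36 and 12.36.

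SREBP factors act on sterol genes through sterol response elements. The letters TCACNCCAC, searched on both strands as above, were in the promoter of 1 of 14 called genes with a promoter (7.14%), against 1.22% of all genes. That gene is *Hmgcs1*, HMG-CoA synthase, which read 12.23 and 12.27 against 13.08 and 13.03 (0.81, SE 0.14, adjusted p = 0.00315). Its promoter (chr13:119690101-119690350, plus strand) is shown with the match in capitals.
Hmgcs1: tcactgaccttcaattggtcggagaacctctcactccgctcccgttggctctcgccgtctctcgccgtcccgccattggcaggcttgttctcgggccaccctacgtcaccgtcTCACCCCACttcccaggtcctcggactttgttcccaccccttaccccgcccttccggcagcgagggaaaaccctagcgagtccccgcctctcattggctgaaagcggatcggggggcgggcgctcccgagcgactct

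Amino acid and one-carbon genes rose in 12 of 23, with none lower and a median of 0.78 (52.2% called, against 26.5%). *Asns*, asparagine synthetase, differed between the naive arrays, at 3.27 and 6.29, and read 11.74 and 11.69 in TEM cells (6.93, SE 0.80, adjusted p = 0.00041). *Cth*, which makes cysteine, went from 2.86 and 2.62 to 5.55 and 6.09 (3.08), and *Psat1*, of serine synthesis, from 10.67 and 10.19 to 11.95 and 11.90 (1.49). *Atf4*, the stress factor upstream of many of these genes, read 11.01 and 11.14 against 10.24 and 10.37 and was not called (-0.77, adjusted p = 0.0657). Without naive array 2 the list had 5 genes called higher, without TEM array 1 it had 7, and with unmarked probe sets 6. Without either naive CD8+ array 2 were called lower.

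The median of the ribosome biogenesis genes was that of all genes. Most proteasome genes read slightly higher in TEM cells but were called about as often as all genes. Of 20 genes counted here as nucleolar, with *Myc* among them, 2 rose and 1 fell, with a median of 0.02. Of these 20, 15% were called, against 26.5% of all genes, and *Nop2* (0.51) was the higher call beside *Myc*. *Myc*, the growth factor-induced regulator of this group, rose from 8.06 ± 0.07 to 9.02 ± 0.04 (SD, n = 2; 0.96, SE 0.12, adjusted p = 0.000704), while *Npm1*, nucleophosmin, read 13.28 and 13.31 against 13.33 and 13.27 (0.00, adjusted p = 0.986). Of 24 proteasome genes 6 rose and none fell, with a median of 0.31. Thus 25% were called, against 26.5% of all genes called and 16.4% called higher. Both TEM arrays lay above both naive arrays for 20 of the 24 and below them for 1, against 33.8% and 29.3% of all genes. The largest of these was *Psmb2*, a core subunit, from 9.19 and 9.13 to 10.53 and 10.57 (1.39), and *Psmb8*, the interferon-inducible LMP7 subunit, went from 11.62 and 11.63 to 12.68 and 12.69 (1.06). Without any single one of the 4 arrays 2 proteasome genes were called higher, and 12 were when the prior for the variance was allowed to follow the level of the gene and made robust to outlying genes. Of the nucleolar genes 1 was called higher without any one of the 4 arrays or either CD8+ TEM array, while 0 to 3 were called lower, 3 of them without TEM array 1 and none without naive array 2 or TEM array 2.

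**Figure D3:**
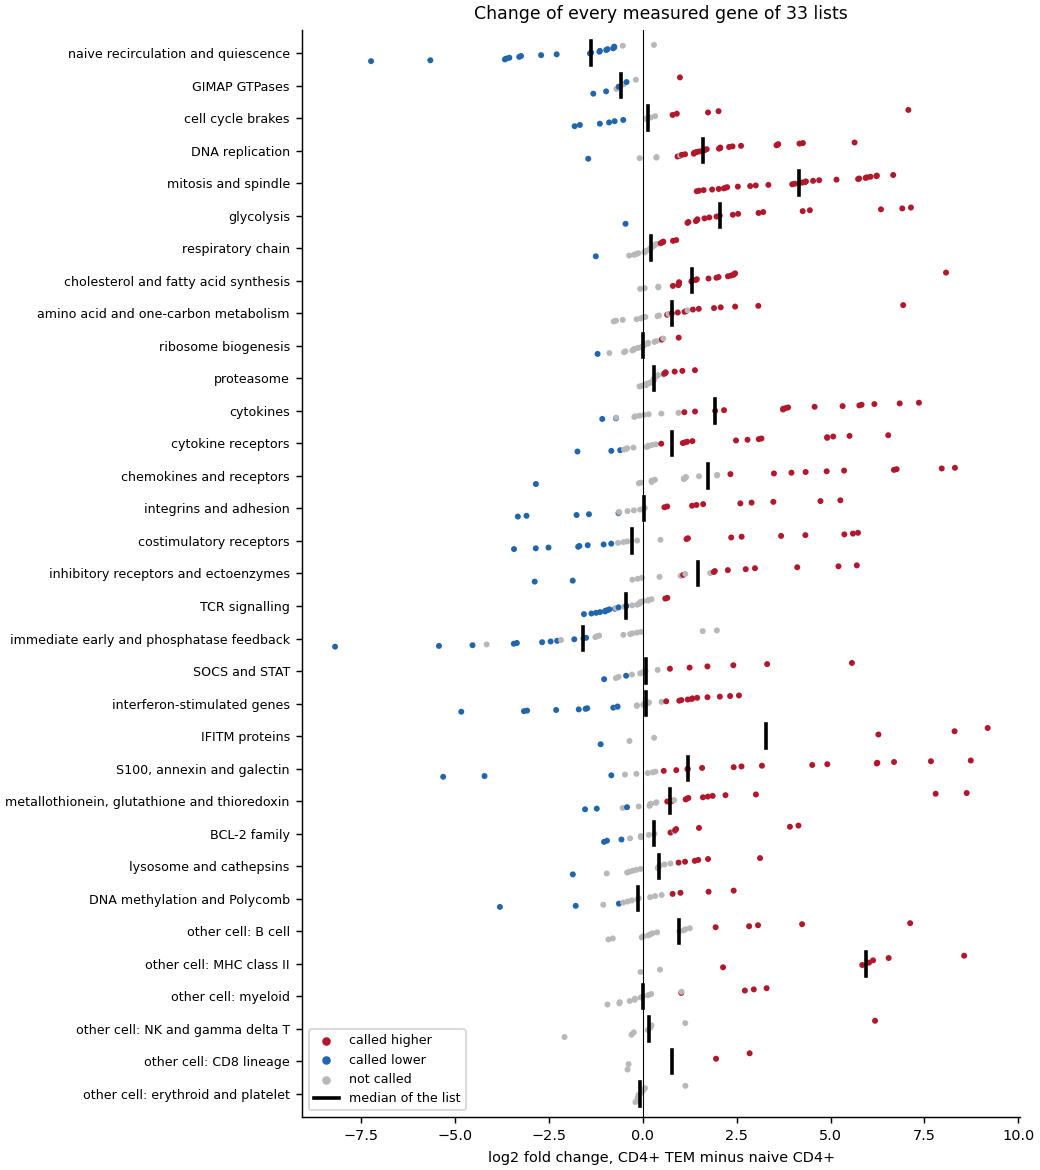
Log2 fold change (CD4+ TEM minus naive CD4+, horizontal axis) of each measured gene of the gene lists, 1 row per list, with called genes in red or blue, other genes in grey and a black bar at the list median. Mitosis, glycolysis and MHC class II medians lie above 2, that of the immediate early genes at -1.58, and the costimulatory, integrin and interferon-stimulated lists hold red and blue points on both sides of 0.

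Cytokine genes of several helper programs rose side by side: 15 of 25 were higher, 2 lower, with a median of 1.93 (68% called, against 26.5%). Type 2 cytokines were among them. *Il13* read 3.99 and 4.40 in naive and 8.93 and 8.61 in TEM cells (4.58, SE 0.23, adjusted p = 4.47e-06), *Il4* 2.50 and 3.38 against 6.48 and 6.88 (3.74) and *Il5* 3.50 and 3.42 against 5.96 and 5.29 (2.17). *Il5* stayed under 6, in the background range, on all 4 of the arrays compared. *Ifng*, the type 1 cytokine, went from 4.14 and 4.49 to 10.22 and 10.06 (5.83, SE 1.04, adjusted p = 0.00407), and *Il21*, a follicular helper cytokine, from 2.51 and 2.81 to 6.17 and 6.77 (3.81). The lower calls were of *Ltb* (-0.71) and *Il16* (-1.07). Both lower calls ended without any single one of the 4 arrays, and that of *Ltb* also without either memory or either CD8+ TEM array, with quantile normalization and with the replicate number as a block. Without TEM array 1 *Tnf* was called lower instead (-1.06).

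Memory cells of the same day stood at other levels. *Il13* read 4.89 and 5.10 there, *Ifng* 4.67 and 4.80, *Il21* 2.60 and 2.85, and *Il9* 3.47 and 3.68 against 10.75 and 10.81 on the TEM arrays. *Csf2*, GM-CSF, read 3.86 and 4.98 in memory and 10.13 and 9.98 in TEM cells. In contrast *Lif*, leukemia inhibitory factor, read 10.52 and 10.28 in memory and 10.17 and 10.43 in TEM cells, and *Il24* 9.03 and 9.30 against 10.48 and 10.26. Memory and TEM cells are both set against the same naive arrays, so these levels are given side by side with no test. Genes near background in both naive and TEM arrays included *Il17a*, at 3.30 and 3.46 against 3.27 and 3.05, and *Il6*, at 2.31 and 2.47 against 2.23 and 2.15.

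Among cytokine receptors 14 of 26 rose and 3 fell, with a median of 0.78 (65.4% called, against 26.5% of all genes). *Il2ra* and *Il2rb*, for 2 of the chains of the high-affinity IL-2 receptor, read 6.17 and 7.04 against 11.71 and 11.65 (5.07, SE 0.25, adjusted p = 4.11e-06), and 6.67 and 6.81 against 11.67 and 11.63 (4.91, SE 0.15, adjusted p = 4.97e-07). *Il1r2*, the decoy receptor for IL-1, went from 3.24 and 3.29 to 9.88 and 9.72 (6.53), and *Il18rap*, for an IL-18 receptor chain, from 4.15 and 4.27 to 9.80 and 9.64 (5.51). *Il12rb2*, the signalling chain of the IL-12 receptor, read 4.18 and 4.57 against 7.58 and 7.36 (3.09). *Il17ra*, the IL-17 receptor, fell from 10.71 and 10.90 to 9.05 and 9.08 (-1.73). With the variation filter 1 gene of the list was called lower.

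Downstream feedback genes of cytokine signalling rose in part, with 6 of 15 higher, 2 lower and a median of 0.08 (53.3% called, against 26.5%). The list holds *Cish*, *Pim1*, *Pim2* and *Bcl3* beside SOCS, STAT and JAK genes, and *Bcl3* was among those higher. *Socs2* read 4.76 and 5.45 against 10.70 and 10.64 (5.57, SE 0.28, adjusted p = 4.85e-06) and *Cish* 8.21 and 8.43 against 11.66 and 11.61 (3.31). Both encode STAT5-induced inhibitors. *Jak3*, the kinase bound to the common γ chain, rose from 7.19 and 6.79 to 9.30 and 9.51 (2.41), and *Jak1* fell from 11.61 and 11.65 to 10.66 and 10.56 (-1.02, SE 0.13, adjusted p = 0.000819). *Socs1* was near background in both groups, at 4.65 and 4.86 against 4.70 and 4.68. The lower call of *Stat5b* (-0.44, adjusted p = 0.0481) ended without any single one of the 4 arrays or either CD8+ TEM array, and the list had 4 lower calls without either memory array.

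Of 24 chemokine and chemokine receptor genes 10 rose, with 1 lower and a median of 1.74 (45.8% called, against 26.5%). *Ccl3*, a ligand of CCR1, read 2.52 and 3.06 against 9.68 and 9.42 (6.76, SE 0.79, adjusted p = 0.000445), *Ccl5* 5.02 and 4.96 against 9.97 and 9.81 (4.90) and *Cxcl10*, an interferon-induced ligand of CXCR3, 4.64 and 4.58 against 8.95 and 8.95 (4.34). Receptors rose too: *Ccr1* went from 3.42 and 3.42 to 7.17 and 7.59 (3.96) and *Ccr8*, a receptor of skin and type 2 cells, from 3.73 and 3.36 to 5.83 and 5.93 (2.34). *Ccr8* thus stayed under 6, in the background range, on all 4 arrays. *Ccr1* read 2.83 and 3.69 in memory cells. *Cxcr4* stayed bright, at 12.12 and 12.01 against 12.46 and 12.32 (0.33, adjusted p = 0.447). *Ccr9*, the gut homing receptor, was the gene called lower, at 5.54 and 5.61 against 3.05 and 2.43 (-2.84). It was under 6 on all 4 arrays, and with unmarked probe sets its change was -0.95 and not called.

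Integrins and adhesion molecules exchanged members, with 10 of 22 higher, 5 lower and a median of 0.04 (68.2% called, against 26.5%). *Cd44* is among the 10 higher, and since the cells were sorted on it, its rise is no separate result. *Itgae*, the α chain of CD103, read 5.09 and 5.21 in naive and 10.25 and 10.57 in TEM cells (5.26, SE 0.84, adjusted p = 0.00236), and *Icam1* 8.53 and 8.43 against 11.43 and 11.32 (2.90). *Itga1*, the collagen-binding α1 chain, went from 3.43 and 3.56 to 5.75 and 8.19, so the TEM arrays differed from each other. *Icam2*, of resting lymphocytes, fell from 9.52 and 9.74 to 6.54 and 6.09 (-3.32), *Pecam1* from 7.56 and 8.14 to 4.87 and 4.65 (-3.09), *Itga6* from 11.46 and 11.43 to 9.53 and 9.84 (-1.76) and *Itga4* from 11.97 and 11.84 to 10.42 and 10.54 (-1.43). *Itgal*, of LFA-1, read 10.40 and 10.47 against 10.34 and 10.40.

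Costimulatory receptors went both ways: 9 of 22 rose, 8 fell, and the median was -0.28 (77.3% called, against 26.5%). Of those higher, 6 were of the TNF and TNF receptor families. *Tnfrsf4*, OX40, read 6.65 and 6.51 against 11.96 and 11.94 (5.37, SE 0.14, adjusted p = 3.39e-07), its ligand *Tnfsf4* 3.08 and 3.45 against 8.85 and 8.87 (5.59) and *Tnfrsf9*, 4-1BB, 8.32 and 8.37 against 12.72 and 12.62 (4.33). *Cd27*, of the same receptor family, fell from 9.86 and 10.02 to 7.13 and 7.06 (-2.84), and *Cd28*, the main costimulator of naive cells, from 11.54 and 11.56 to 10.19 and 9.99 (-1.46). SLAM receptors parted: *Slamf7* went from 4.92 and 3.77 to 10.14 and 10.01 (5.73) and *Slamf6* from 10.01 and 9.73 to 6.77 and 6.13 (-3.42). *Cd80*, a ligand of CD28, rose from 4.75 and 4.07 to 8.15 and 8.04 (3.68).

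Inhibitory receptors and ectoenzymes rose in 9 of 18, with 2 lower and a median of 1.47 (61.1% called, against 26.5%). *Cd244a*, the SLAM receptor 2B4, read 3.70 and 3.26 in naive and 9.03 and 9.33 in TEM cells (5.70, SE 0.27, adjusted p = 3.21e-06), and 2.89 and 2.75 in memory cells. *Havcr2*, TIM-3, went from 3.75 and 4.33 to 8.36 and 7.95 (4.11) with 4.52 and 4.38 in memory cells, and *Pdcd1lg2*, the PD-1 ligand PD-L2, from 4.54 and 3.55 to 9.16 and 9.35 (5.21). *Entpd1* and *Nt5e*, CD39 and CD73, which turn ATP to adenosine, both rose, by 2.74 and 2.27. *Pdcd1*, PD-1 itself, read 5.14 and 6.03 against 5.51 and 5.40 (-0.13, adjusted p = 0.847). *Btla* fell from 10.19 and 10.08 to 7.37 and 7.16 (-2.87). The call of *Klrd1*, at -1.86, ended without naive array 1, naive array 2 or TEM array 1.

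Signalling parts of the T cell receptor were lower in 11 of 25 and higher in 2, with a median of -0.43. Of the list 52% was called, against 26.5% of all genes. *Prkcq*, protein kinase C θ, fell from 11.61 and 11.81 to 10.13 and 10.16 (-1.56, SE 0.14, adjusted p = 9.93e-05), *Cd247*, the ζ chain, from 10.72 and 10.61 to 9.45 and 9.16 (-1.36) and *Lat*, the membrane adaptor, from 11.76 and 11.84 to 10.90 and 10.93 (-0.88). *Dgka* and *Dgkz*, the diacylglycerol kinases that limit the signal, fell as well, by 1.24 and 1.13 on the log2 scale. *Zap70*, the kinase that binds the ζ chain, read 9.89 and 9.93 against 9.88 and 9.83, and *Cd3d* 13.22 and 13.08 against 13.09 and 13.10, with no call. Both higher calls, of *Nfatc2* and *Themis*, ended without TEM array 1, and 1 was left without any other of the 4 arrays.

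Immediate early genes, transcribed within minutes of a stimulus, were bright in the naive cells and lower in TEM cells. Of 23 measured genes of this group and its phosphatase feedback, 10 fell and none rose, with a median of -1.58 (43.5% called, against 26.5%). *Fos* is given above. *Egr1*, a zinc finger factor, read 12.76 and 12.82 in naive and 10.37 and 10.66 in TEM cells (-2.27, SE 0.30, adjusted p = 0.000819), and *Zfp36*, an mRNA decay factor, 11.71 and 11.54 against 8.28 and 8.28 (-3.35). *Dusp10*, a MAP kinase phosphatase, went from 10.99 and 11.04 to 7.55 and 7.62 (-3.43, SE 0.33, adjusted p = 0.000158).

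Other members of these families were not called. *Nr4a2*, an orphan nuclear receptor, read 9.26 and 9.20 against 4.73 and 5.43 (-4.15, SE 1.76, adjusted p = 0.13), and *Nr4a3* 10.25 and 10.09 against 10.01 and 9.79 (-0.27, adjusted p = 0.847). *Jund* read 13.21 and 13.21 against 13.10 and 13.03. The naive CD8+ pair enters the error of these genes, since *Fos* read 13.06 and 7.09 on its arrays and *Fosb* 10.56 and 3.94. Without either naive CD8+ array, or with the 4 CD4+ arrays alone, 16 genes of the list were called lower and 2 higher. With naive array 1, naive array 2, TEM array 1 or TEM array 2 left out the number was 6, 5, 6 and 5, and the calls of *Fosb* (-5.42) and *Nr4a1* (-4.53) ended in each case, as they did without any single memory or CD8+ TEM array.

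Interferon-stimulated genes split into those higher and those lower in TEM cells: 11 of 29 rose, 9 fell, and the median was 0.10. Of the list 69% was called, against 26.5% of all genes. The higher ones included the guanylate-binding and immunity-related GTPases, which type II interferon induces strongly. Genes outside these families rose too: *Isg20* (2.56, the largest rise of the list), *Oas3* (1.45), *Dhx58* (1.32), *Ifi27* (1.31), *Bst2* (1.20) and *Zbp1* (0.98). Whether the split follows the type of interferon was not tested. *Gbp3* read 7.82 and 7.54 in naive and 9.65 and 9.82 in TEM cells (2.05, SE 0.16, adjusted p = 4.14e-05), *Iigp1* 8.49 and 7.91 against 10.50 and 10.54 (2.33), *Gbp2* 10.41 and 9.45 against 11.65 and 11.66 (1.73) and *Igtp* 11.75 and 11.39 against 12.59 and 12.62 (1.03). For *Gbp3*, *Iigp1*, *Gbp2* and *Igtp* no TEM array lay below a naive array.

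The lower ones included the IFIT family of type I interferon-induced RNA-binding proteins. *Ifit1* read 9.25 and 9.20 in naive and 4.34 and 4.46 in TEM cells (-4.83, SE 0.31, adjusted p = 1.67e-05), *Ifit3* 8.73 and 8.68 against 5.84 and 5.42 (-3.07) and *Ifit2* 10.52 and 10.38 against 8.29 and 8.01 (-2.30). *Oasl1*, an oligoadenylate synthetase-like protein, went from 6.47 and 6.54 to 3.34 and 3.35 (-3.16), and *Usp18*, which removes ISG15 and damps the receptor, from 9.51 and 9.63 to 7.94 and 8.26 (-1.47). *Ddx58*, the RNA sensor RIG-I, and *Irf9*, of the ISGF3 complex, were not called, at 8.98 and 8.99 against 9.16 and 9.12, and at 9.22 and 9.18 against 9.45 and 9.15. With unmarked probe sets, 7 genes of the list were called higher.

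**Figure D4:**
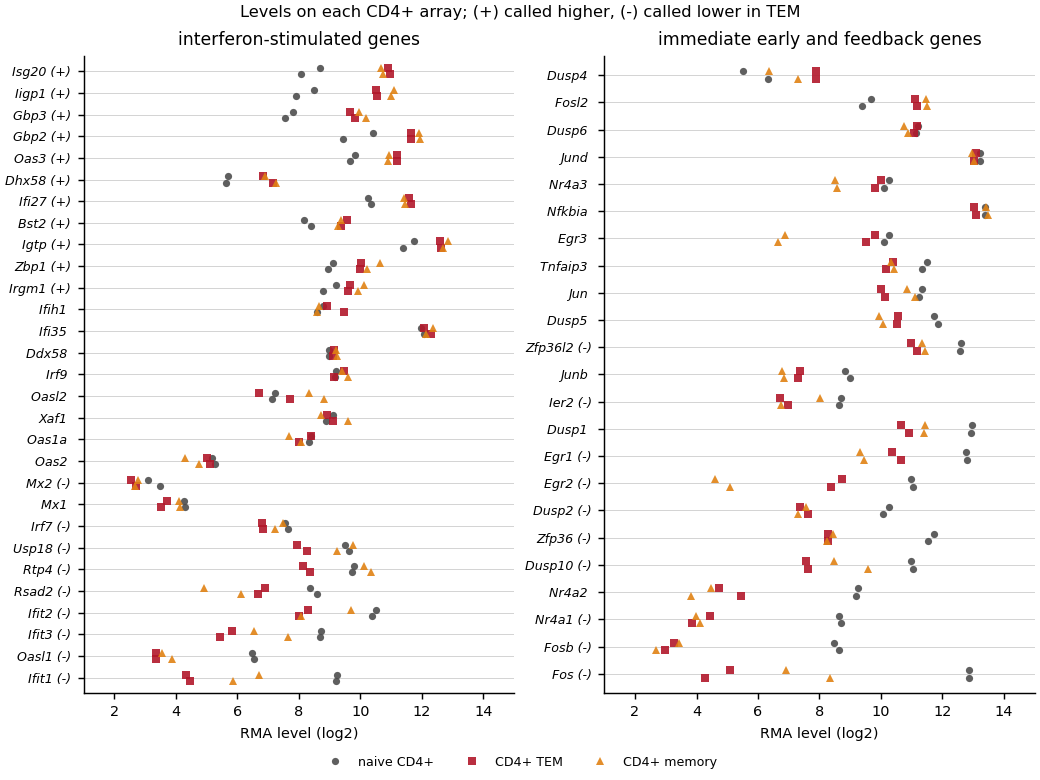
RMA level (log2) on each CD4+ array for the interferon-stimulated genes (left) and the immediate early and feedback genes (right), with circles for naive, squares for TEM and triangles for memory cells, 2 arrays each. A plus or minus sign marks genes called higher or lower in TEM, and the interferon-stimulated genes separate into rows with squares to the right of the circles, such as *Gbp3*, and rows with squares to the left, such as *Ifit1*.

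Interferon acts on many of these genes through interferon-stimulated response elements, and the letters GAAANNGAA were searched on both strands in the same 250 bases, with overlapping matches kept. They were found in 6 of 7 higher genes that have a promoter in the table (85.7%: *Gbp3*, *Gbp2*, *Oas3*, *Bst2*, *Igtp* and *Irgm1*), in 3 of 6 lower genes (50%: *Ifit1*, *Ifit3* and *Rsad2*) and in 2 of 7 genes not called (28.6%: *Ifih1* and *Oas1a*), against 8.18% of all genes. Both directions thus hold genes with these letters. The promoters of *Gbp3* (chr3:142559794-142560043, plus strand), *Ifit1* (chr19:34640639-34640888, plus strand) and *Ifit3* (chr19:34583279-34583528, plus strand) are shown as examples from the higher and the lower genes. Capitals mark the matches, which read from the opposite strand here, and matches that overlap or touch form 1 run.
Gbp3: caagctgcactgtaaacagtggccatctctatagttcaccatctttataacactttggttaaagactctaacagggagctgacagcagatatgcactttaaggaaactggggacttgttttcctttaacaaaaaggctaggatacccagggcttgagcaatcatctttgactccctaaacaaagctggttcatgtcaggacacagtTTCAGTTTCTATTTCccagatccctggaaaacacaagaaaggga
Ifit1: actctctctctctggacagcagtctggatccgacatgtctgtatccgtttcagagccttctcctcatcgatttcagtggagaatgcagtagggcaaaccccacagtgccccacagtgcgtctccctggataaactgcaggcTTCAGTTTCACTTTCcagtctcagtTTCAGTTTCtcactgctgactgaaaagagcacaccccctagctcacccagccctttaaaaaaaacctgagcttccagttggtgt
Ifit3: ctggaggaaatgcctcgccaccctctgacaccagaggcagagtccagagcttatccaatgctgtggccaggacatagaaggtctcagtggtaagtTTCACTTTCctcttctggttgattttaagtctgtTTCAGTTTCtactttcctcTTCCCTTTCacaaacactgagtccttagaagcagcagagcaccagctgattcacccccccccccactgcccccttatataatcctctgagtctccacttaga

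IFITM genes, which encode membrane proteins that block virus entry, ranged from among the largest rises to no call. *Ifitm2* read 3.81 and 4.34 in naive and 12.38 and 12.36 in TEM cells (8.30, SE 0.27, adjusted p = 6.24e-07) and *Ifitm3* 5.97 and 5.64 against 12.00 and 12.16 (6.27). *Ifitm6* and *Ifitm7* were near background, at 4.30 and 4.95 against 4.37 and 4.18, and at 2.77 and 3.01 against 3.11 and 3.28. Of the 6 measured genes 3 rose and 1, *Ifitm10*, was called lower (-1.12), a call that ended without naive array 1, TEM array 1, TEM array 2 or either CD8+ TEM array. The list median was 3.29, and 66.7% of the list was called, against 26.5% of all genes.

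S100, annexin and galectin genes rose in 15 of 23, with 3 lower and a median of 1.20 (78.3% called, against 26.5%). Annexins bind membranes in the presence of calcium. *Anxa2* read 5.55 and 6.25 against 12.61 and 12.57 (6.69, SE 0.28, adjusted p = 1.97e-06), though its other probe sets changed by 0.58 and 0.72. *Anxa4* read 4.31 and 4.75 against 10.86 and 10.66 (6.23), with other probe sets between 1.45 and 3.50, and *Anxa1* 3.64 and 5.51 against 9.14 and 9.04 (4.51). *Anxa1* read 7.40 and 5.56 in memory cells. *Anxa5* and *Anxa6* were not called, with changes of 0.34 and 0.26. *S100a8* and *S100a9*, which encode the calprotectin of neutrophils, fell from 8.11 and 9.45 to 3.47 and 3.48 (-5.31, SE 0.67, adjusted p = 0.000684) and from 7.71 and 9.81 to 4.68 and 4.42 (-4.21). Both were higher on naive array 2 than on naive array 1, and the myeloid gene *Lyz2* read 4.81 and 6.11 there.

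Metallothionein and antioxidant genes rose in 12 of 24, with 3 lower and a median of 0.72 (62.5% called, against 26.5%). *Mt2*, which binds zinc, read 3.61 and 4.92 against 12.11 and 12.01 (7.80, SE 0.40, adjusted p = 4.84e-06). *Slc30a1*, the exporter that moves zinc out of the cell, fell from 10.98 and 10.99 to 9.06 and 9.84 (-1.53), while *Slc39a6*, a zinc importer, rose from 9.63 and 9.34 to 11.25 and 11.19 (1.73). *Prdx4*, a peroxiredoxin, went from 9.69 and 9.57 to 11.81 and 11.86 (2.20) and *Srxn1*, which restores peroxiredoxins, from 4.81 and 4.64 to 7.67 and 7.82 (3.01). *Gclc*, the catalytic subunit of glutathione synthesis, fell from 7.86 and 7.82 to 6.84 and 6.39 (-1.22).

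BCL-2 family genes of both death and survival rose, 6 of 15, with 3 lower and a median of 0.31 (60% called, against 26.5%). *Pmaip1*, the BH3-only killer NOXA, read 5.64 and 5.49 against 9.70 and 9.73 (4.15, SE 0.31, adjusted p = 3.57e-05), and the survival genes *Bcl2l2* and *Bcl2l1* 4.80 and 4.73 against 8.58 and 8.79 (3.92), and 7.07 and 6.63 against 8.44 and 8.27 (1.50). The other probe sets of *Bcl2l2* changed by 0.47 to 0.62. *Bcl2* itself was called higher at 11.68 and 11.43 against 12.26 and 12.33 (0.74). *Bcl2l11*, the killer BIM, fell from 11.21 and 11.12 to 10.22 and 10.21 (-0.95), and its call ended with unmarked probe sets, at -0.44. Without naive array 2 the list had 3 genes called higher and 1 lower.

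Among lysosomal genes 6 of 19 rose and 1 fell, with a median of 0.45 (36.8% called, against 26.5% of all genes). *Cst7*, cystatin F, an inhibitor of cathepsins in granules, went from 7.28 and 7.43 to 10.48 and 10.48 (3.12, SE 0.27, adjusted p = 7.91e-05), *Ctsw*, a cathepsin of cytotoxic cells, from 10.79 and 10.71 to 12.19 and 12.26 (1.48) and *Ctsc*, which activates granule proteases, from 9.53 and 9.42 to 10.49 and 10.37 (0.96). The lower call, of *Ctsl* (-1.86), ended without naive array 2 or TEM array 1, and without either naive CD8+ array 10 genes were called higher. Of 16 genes of DNA methylation and Polycomb, 4 rose and 3 fell, with a median of -0.12 (43.8% called, against 26.5%). *Hells*, a remodeller needed for DNA methylation, rose from 7.12 and 6.47 to 9.11 and 9.33 (2.42) and *Ezh2*, the Polycomb methyltransferase, from 8.55 and 8.57 to 10.28 and 10.35 (1.75). *Tet1*, which oxidises methylcytosine, fell from 7.68 and 7.73 to 4.26 and 3.55 (-3.80, SE 0.32, adjusted p = 6.79e-05) and *Tet3* from 8.13 and 8.20 to 6.82 and 5.94 (-1.78). The other probe sets of *Tet1* changed by -1.32 to -0.59.

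Markers of other cells were measured beside these results, since the cultures held lymphoma B cells. The 17 B cell genes had a summed linear level of 1409 and 1288 on the naive arrays and 3352 and 2870 on the TEM arrays. Such a sum is weighted to its brightest members, *Pou2af1* on the naive arrays and *Ebf1* on the TEM arrays. Of them 5 were called higher and none lower, with a median of 0.98 (29.4% called, against 26.5% of all genes). They were *Ebf1*, a B cell transcription factor, at 3.71 and 2.93 against 10.56 and 10.32 (7.12, with other probe sets between -0.22 and 5.36), *Cd79b*, a chain of the B cell receptor, at 4.05 and 4.64 against 8.77 and 8.41 (4.24), *Vpreb3*, at 5.28 and 4.67 against 7.90 and 8.18 (3.07), *Blnk*, a B cell receptor adaptor, at 2.58 and 2.34 against 5.81 and 4.77 (2.83), and *Spib*, at 3.86 and 3.72 against 5.88 and 5.58 (1.94). The last pair stayed under 6 on all 4 arrays. Of the genes not called, *Pax5*, at 3.62 and 3.62 against 3.84 and 4.18, and *Ms4a1*, CD20, at 3.26 and 3.23 against 4.41 and 4.03, were in the background range in both groups, and *Pou2af1* read 9.86 and 9.75 against 9.14 and 8.66 with no call. With dim genes left out 3 were called higher, and 1 was lower without either CD8+ TEM array.

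MHC class II genes, which B cells and other antigen-presenting cells express, were higher in 6 of 8, with a median of 5.93. Of the list 75% was called, against 26.5% of all genes, and its summed linear level was 871 and 637 against 24030 and 21910. *H2-Ab1* read 5.41 and 5.73 in naive and 12.19 and 12.04 in TEM cells (6.55, SE 0.81, adjusted p = 0.000585), and *Cd74*, the invariant chain, 6.96 and 6.48 against 12.64 and 12.49 (5.84). *Ciita*, their transactivator, read 3.65 and 4.09 against 4.34 and 4.33 (0.46, adjusted p = 0.193). With unmarked probe sets 3 of the list were called higher. Whether B cell RNA has a part in any result above was not tested.

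Of 15 myeloid genes 4 were called higher, with a median of 0.00 (26.7% called, against 26.5% of all genes). The sum of the 15 was 248 and 305 against 534 and 586. *Cd68*, a lysosomal glycoprotein, went from 4.82 and 4.72 to 7.41 and 7.57 (2.72), whereas *Csf1r*, *Cd14* and *Itgam* stayed in the background range on all 4 arrays. Without naive array 2, TEM array 1 or TEM array 2, 2 myeloid genes were called higher, and 1 was lower without naive array 1. NK and γδ T cell genes had 1 call in 8, that of *Trgv4* (12.5% called, against 26.5% of all genes). Of the CD8 lineage, *Cd8a* rose from 5.16 and 4.99 to 7.67 and 8.17 (2.85, SE 0.41, adjusted p = 0.00126) and *Runx3*, the factor of cytotoxic T cells, from 8.42 and 8.47 to 10.39 and 10.41 (1.95), while *Cd8b1* was not called. None of 8 erythroid and platelet genes was called by limma, against 26.5% of all genes. The part of these markers in the results was not tested.

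The CD4+ change was set against that of CD8+ cells, which were raised in the same way and share no array with it. Across the 18193 genes the changes had a Pearson correlation of 0.787 and a Spearman correlation of 0.625, given as a description, since genes are not independent replicates. Among the CD8+ changes 6926 genes were called (38.1%), and 3470 were called in both subsets with the same sign, which is 71.9% of the CD4+ calls and 50.1% of the CD8+ calls. A further 150 were called in both with opposite signs. The difference between the changes was called for 2278 genes, 12.5% of those tested, of which 1461 were more positive in CD4+ and 817 more negative.

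The genes with the largest differences were of several kinds, among them genes that were bright in 1 of the 4 groups and genes that were already bright in 1 of the naive populations. *Il9*, a mast cell and type 2 cytokine, read 3.53 and 3.33 in naive CD4+ and 10.75 and 10.81 in CD4+ TEM cells, and 3.32 and 3.20 against 3.99 and 3.16 in CD8+ cells (difference of changes 7.04, SE 0.35, adjusted p = 0.000186). *Itgae* was at 12.69 and 12.61 in naive CD8+ cells and 11.35 and 11.21 in CD8+ TEM cells, against the rise in CD4+ cells given above (6.64, SE 1.19, adjusted p = 0.0116). *Cxcr6*, a receptor of tissue-resident T cells, read 4.04 and 3.70 against 10.58 and 10.53 in CD4+ cells, and was already at 9.36 and 10.55 in naive CD8+ cells, with 10.51 and 10.42 in CD8+ TEM cells (6.18, SE 0.63, adjusted p = 0.00137). For both genes the 2 naive CD8+ arrays were bright and the 2 naive CD4+ arrays dim.

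In the other direction, *St8sia6* was bright in naive CD4+ but not in naive CD8+ cells, which read 5.10 and 5.46, and CD8+ TEM cells read 4.85 and 5.78 (difference of the changes -6.02, SE 0.42, adjusted p = 0.000506). *Sox4* read 8.95 and 7.52 in naive CD8+ and 7.60 and 6.94 in CD8+ TEM cells, a difference that was not called there, and the CD4+ change was the more negative (-4.72, SE 0.78, adjusted p = 0.00813). *Esm1*, the secreted proteoglycan endocan, appeared in CD8+ TEM cells, at 2.12 and 2.40 against 8.22 and 8.32, and rose within the background range in CD4+ cells, from 2.37 and 2.40 to 3.38 and 3.37 (difference of the changes -5.02, SE 0.21, adjusted p = 0.000179). *Lcn4*, of the lipocalin family, fell in CD8+ cells from 9.47 and 9.91 to 4.52 and 4.07 and was in the background range in CD4+ cells, at 2.83 and 3.30 against 3.14 and 3.85 (5.82, SE 0.47, adjusted p = 0.000644). The number of genes with a called difference was 1356, 1220, 1518 and 1297 without naive CD4+ array 1, naive CD4+ array 2, CD4+ TEM array 1 or CD4+ TEM array 2, and 1082 and 982 without CD8+ TEM array 1 or 2.

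**Figure D5:**
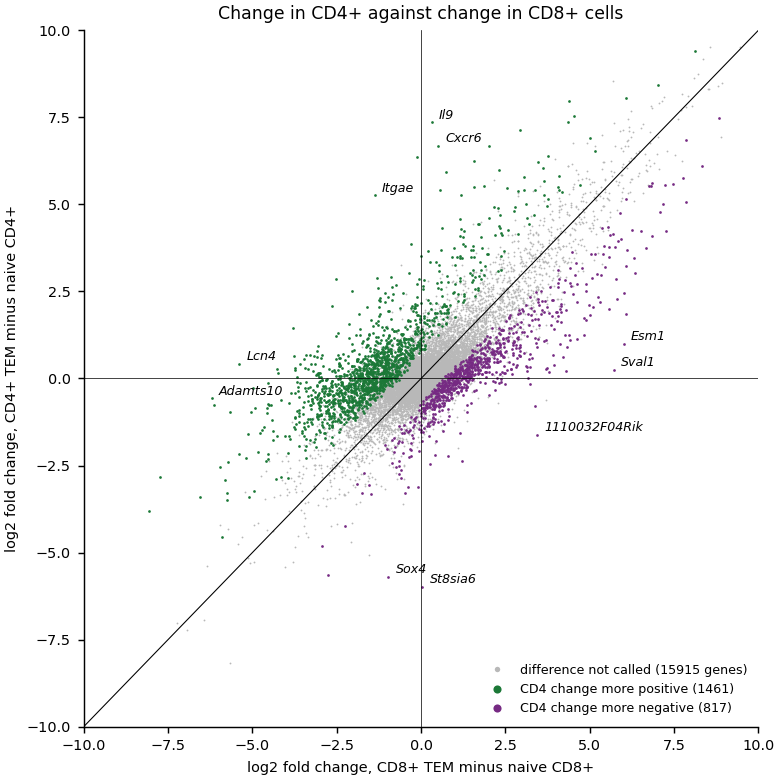
Log2 fold change of each gene in CD8+ cells (TEM minus naive, horizontal axis) against that in CD4+ cells (vertical axis), with the diagonal at equal change. Green points mark 1461 genes with a called difference and a more positive CD4+ change, purple points 817 with a more negative one, and grey points 15915 genes without a called difference. *Il9*, *Cxcr6* and *Itgae* lie high near or left of 0 on the CD8+ axis, and *St8sia6* lies low at 0.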

How the data were processed

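RNA was hybridised to Affymetrix whole-genome mouse arrays, 2 per group. The deposited table holds log2 values that the authors made with BRB-ArrayTools by RMA normalization (version not given in the sources used here). Of 45101 probe sets, 64 are controls, 932 with several symbols and 9160 without one were left out, and 34945 have 1 symbol in the platform annotation. Symbols of 34741 were updated through Entrez identifiers of the RefSeq gene table (GRCm38.p6), and 204 were kept. A gene was represented by the probe set that was brightest on average over the 10 arrays.

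One mean per group was fitted over all 10 arrays in limma 3.58.1 (statmod 1.5.0, R 4.3.3), which left 5 residual degrees of freedom. Variances were moderated by empirical Bayes, and p-values were adjusted by Benjamini-Hochberg across the 18193 genes. A call is an adjusted p under 0.05. Tests were checked on simulated data. Promoters were searched with Python 3.11.15 and pandas 2.3.3, and figures drawn with matplotlib 3.10.9. The study's methods give a variation filter on probe sets and a 2-fold limit, and no test between the groups of arrays. The alternatives were quantile normalization, aligned array medians, the mean of a gene's probe sets, only probe sets without a mark of shared sequence, dim genes left out, the study's variation filter applied before the choice of probe set, a trended and robust prior, the replicate number as a block, the 4 CD4+ arrays alone, and each array left out. The number of arrays limits the precision.

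The comparison, the gene lists and the rule for named genes were chosen with earlier results of these data known. The rule names the 15 largest rises and falls with no overlap outside the genes the paper names, of each list up to 5 called genes in each direction and the 2 brightest not called, the 5 largest differences between the CD4+ and CD8+ changes in each direction, and label checks. Genes that were dim in naive and bright in TEM cells, and other members of the lists, were named after their values were seen. The lists are those counted in the report. Some genes of the lists are not reported here by name.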

Additional observations from a re-analysis of the deposited data

Results flagged for a closer look

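The changes from naive to TEM cells differed between CD4+ and CD8+ cells for 2278 genes by the test of the difference itself in limma. The 10 genes with the most extreme differences outside those the study names are given with the CD4+ change minus the CD8+ change on the log2 scale. More positive in CD4+ cells were *Il9* at 7.04, *Itgae* at 6.64, *Cxcr6* at 6.18, *Lcn4* at 5.82 and *Adamts10*, an extracellular metalloprotease, at 5.64. *Adamts10* fell in CD8+ cells, from 10.10 and 9.84 to 3.46 and 4.06, and its naive CD4+ arrays differed, at 4.28 and 6.33. More negative were *St8sia6* at -6.02, *Sval1* at -5.46, *1110032F04Rik* at -5.05, *Esm1* at -5.02 and *Sox4* at -4.72. *1110032F04Rik* read 8.40 and 8.25 against 6.68 and 6.74 in CD4+ cells and 4.17 ± 0.24 (SD, n = 2) against 7.60 and 7.62 in CD8+ cells, so the groups lay in opposite order in the subsets. *Sval1* was in the background range in both CD4+ groups and rose in CD8+ cells from 2.25 and 2.64 to 7.89 and 8.43. The cause of these differences was not tested.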

How the results depend on the processing

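Over the 19 alternatives run, the number of genes called in CD4+ cells lay between 3185 and 5346, with 2110 to 3254 higher and 1075 to 2092 lower, and the difference between the CD4+ and CD8+ changes was called for 982 to 2774. The lowest and highest of these come from leaving out 1 array. Higher calls made up 56.5% to 66.3% of the calls, and 61.8% as reported. With the replicate number of the titles as a block, 4656 genes were called, 2889 higher and 1767 lower, and 2055 for the difference. Same-numbered arrays did not deviate together (correlations from -0.0358 to 0.0294), so the numbers were not taken to pair samples. With the variation filter, which leaves 7349 genes, 2487 genes were at least 2-fold higher and 1630 at least 2-fold lower, against 2360 and 1151 without it, and the median of all genes was 0.33.

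Of 238 named genes called, 183 kept the call under every alternative run and 55 lost it under at least 1. Directions turned, with a call in 1 or both of the fits compared, for *Ccnd3* (-0.24), *Orc1* (0.67), *Ndufb8* (-0.60) and *Stat5b* (0.36) with the mean of all probe sets, for *Ndufb8* (-2.10) with unmarked probe sets, and for *Tmsb10* (-0.88), *Txnrd1* (0.0094) and *Sod1* (-1.56) with the variation filter, which takes another probe set of a gene. A further 33 values changed sign with no call in either setting. The alternatives for the 10 differences above were added after seeing the data. *Adamts10* lost its call with the mean of all probe sets, without CD4+ TEM array 2 and without CD8+ TEM array 1, and the other 9 kept theirs. The number of arrays and levels near background limit these values.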
